A study of Mus musculus with 18 samples.

Results

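Microglia are the resident macrophages of the retina, and 47 genes of microglia and macrophages were followed in retinas of mice after crush of the optic nerve. All probes of the deposited signal table whose annotated gene symbol was 1 of the 47 were taken. Of these genes, 44 had a probe, 72 probes in all, out of 17658 genes and 46116 probes in the table. Csf1r, Cd68 and Lyn were not analysed here. For 15 genes that had more than 1 probe, the brightest by its average over the arrays was taken.

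The mice were males of the inbred strains DBA/2J and C57BL/6J, 60 to 90 days old. In each strain 3 groups were compared, naive controls and retinas taken 2 and 5 days after the optic nerves had been held for 10 s with cross-clamp forceps, with 3 arrays per group and RNA from 2 pooled retinas on each 1-color Illumina Mouse-6 array. Where a value is given below for a retina, it is that of 1 array with its pool of 2 retinas. No transgene marks the cells, and the whole retina was used, so RNA of all its cell types was mixed. The DBA/2J strain develops a pigmentary glaucoma with age, and neither strain carried an engineered allele according to the labels.

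In the healthy retina, microglia sit in the plexiform layers and survey the tissue through receptors such as the fractalkine receptor Cx3cr1 and purinergic receptors. After injury they retract their processes, divide and take up debris, and blood macrophages can enter beside them. Their common gene program depends on the transcription factors Spi1 (PU.1) and Irf8 and is read out by adaptor proteins such as Tyrobp and Fcer1g, which pass on signals of activating receptors, and by proteins of the lysosome and phagosome.

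The promoters of 4 genes that carried the response described below are shown so that the letters recognized by Spi1 can be looked for in them. They are RefSeq sequences of the mouse build GRCm38.p6, from 250 bases before to 50 bases after the start of the gene, written along the strand of the gene. Capitals mark GAGGAA, a core motif of Spi1, on either strand (here as its reverse complement TTCCTC).
Laptm5, chr4:130913066-130913365, plus strand: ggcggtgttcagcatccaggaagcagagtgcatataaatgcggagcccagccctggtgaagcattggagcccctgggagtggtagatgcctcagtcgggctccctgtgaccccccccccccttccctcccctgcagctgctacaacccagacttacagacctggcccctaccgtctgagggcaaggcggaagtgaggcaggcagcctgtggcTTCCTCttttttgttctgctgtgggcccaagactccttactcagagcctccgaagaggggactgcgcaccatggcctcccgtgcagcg
Mpeg1, chr19:12460520-12460819, plus strand: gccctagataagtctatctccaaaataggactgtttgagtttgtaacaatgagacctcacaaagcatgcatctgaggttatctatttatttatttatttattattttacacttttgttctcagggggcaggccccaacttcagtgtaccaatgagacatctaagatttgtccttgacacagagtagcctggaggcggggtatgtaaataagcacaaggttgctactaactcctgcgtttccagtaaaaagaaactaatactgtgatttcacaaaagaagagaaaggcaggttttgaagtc
Ly86, chr13:37345095-37345394, plus strand: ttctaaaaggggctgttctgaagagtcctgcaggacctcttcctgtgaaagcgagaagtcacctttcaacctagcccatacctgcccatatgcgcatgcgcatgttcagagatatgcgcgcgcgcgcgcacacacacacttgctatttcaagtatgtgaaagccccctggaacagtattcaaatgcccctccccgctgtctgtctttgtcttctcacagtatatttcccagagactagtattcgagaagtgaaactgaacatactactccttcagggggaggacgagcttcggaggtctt
Cx3cr1, chr9:120068247-120068546, minus strand: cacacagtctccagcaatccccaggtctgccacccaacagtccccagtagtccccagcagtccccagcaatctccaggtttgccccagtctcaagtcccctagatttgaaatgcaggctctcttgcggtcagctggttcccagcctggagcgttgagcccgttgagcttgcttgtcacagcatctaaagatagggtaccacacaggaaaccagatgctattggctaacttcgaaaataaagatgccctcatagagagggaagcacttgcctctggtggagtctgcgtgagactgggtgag
Of the 4, only the Laptm5 promoter held GAGGAA, on the minus strand with its first base 38 bases before the start. RefSeq promoters were used for 30 of the genes, 38 promoters in all. GAGGAA was in 18 of the 38 (47.4%), against 28.3% of all 32851 promoters of the same length. The longer form GAGGAAGT, which contains the core, was in 2 of the 38, those of Cd53 and Vav1 (5.3%), against 3.2% of all promoters. Both motifs were searched on both strands. A match describes letters and is not a binding site, and no match says only that the letters are not in this window.

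Levels are given on the scale of the study, on which the log2 signals of each array have a mean of 8 units and an SD of 2 units. As a median over the arrays, 1 unit equals 0.56 log2 (1.47-fold). The table holds no detection p-value. A background level of 7.44 units was therefore taken, the 95th percentile of the mean levels of 975 probes of olfactory receptor genes, which the retina is not known to use. By this measure 21 of the 44 genes lay above background and 23 below, against 55.7% of all genes above. A gene is said to be called, to rise or to fall, if its adjusted p from limma was under 0.03, in a fit that took in all 18 arrays and was adjusted over the 46116 probes.

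The labels of 3 arrays did not match their data. At 91 genes that separated the control retinas of the strains by over 2 units, the array labelled C57BL/6J 2 days replicate 3 lay nearer to its own strain at 4 genes, and for DBA/2J 2 days replicate 1 this number was 9, whereas each of the other crush arrays did so at 79 to 87. The array labelled C57BL/6J control replicate 1 had Xist, an RNA of the inactive X chromosome, at 11.27 units and the Y-linked Eif2s3y at 7.02 units, against its male label. The comparisons at 2 days and between the strains are given with and without the first 2 of these arrays. Without the control array that carried Xist, 6 genes were called over both strains at 5 days in place of 9 (Adgre1, Gpr34 and Cd83 were lost), and 4 in C57BL/6J in place of 5. Median signals ran from 131.5 to 210.4 over the arrays, and precision is limited by their number. Nothing in the labels says that the 3 arrays of a group came from separate cages or days, so the p-values measure the spread between these arrays.

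**Figure D1:**
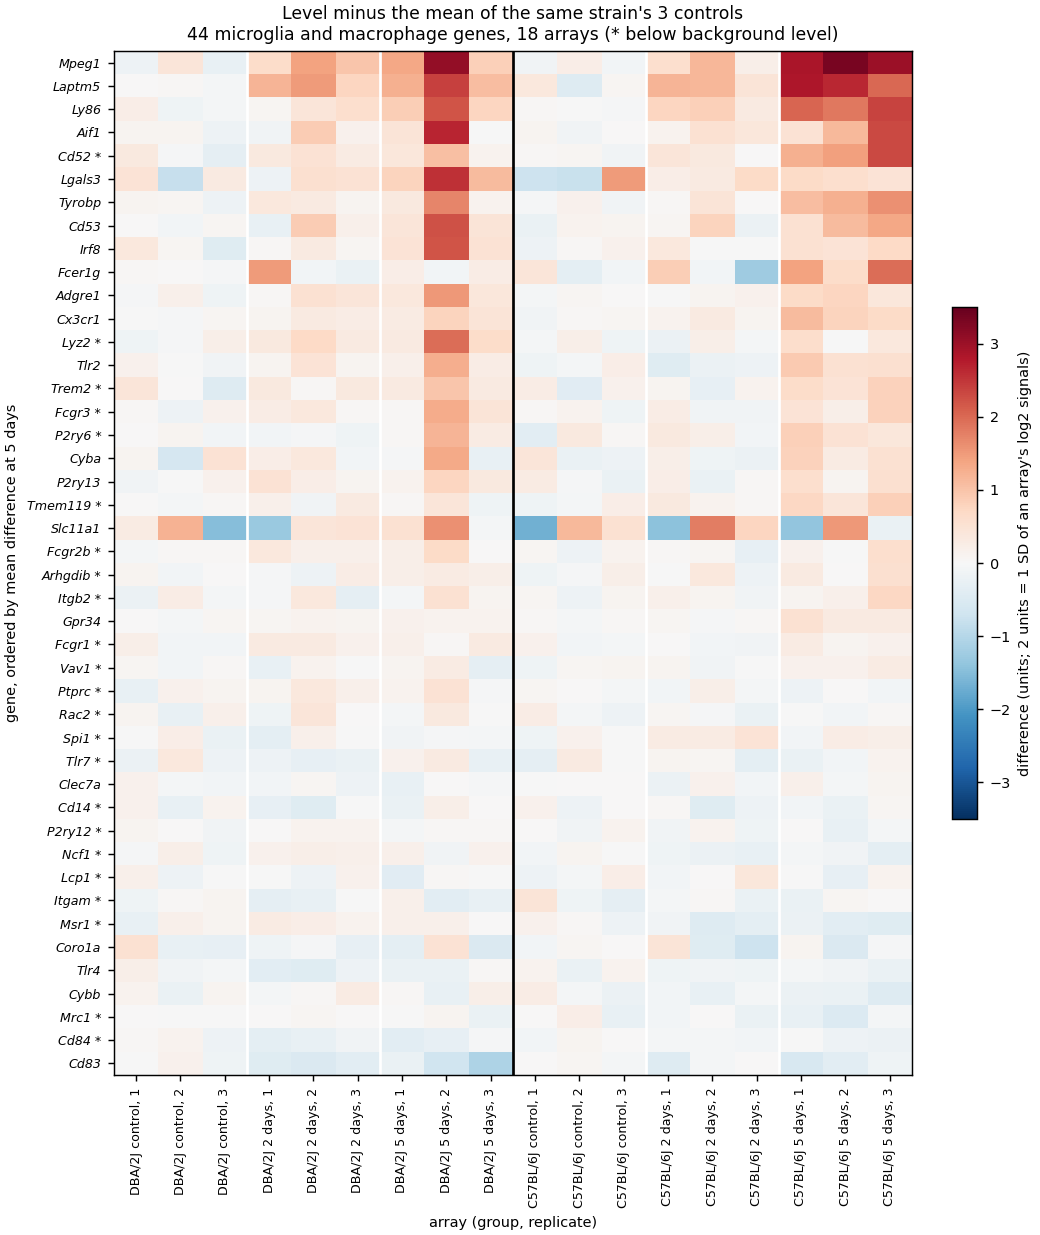
Level of each of the 44 genes (rows, ordered by the mean difference at 5 days) on each of the 18 arrays (columns), minus the mean of the 3 controls of the same strain, in units; an asterisk marks genes under the background level. Mpeg1, Laptm5 and Ly86 are the top rows, with the largest mean differences over both strains at 5 days, and DBA/2J 5 days replicate 2 is the darkest column of its group.

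At 5 days after crush, some of the microglia and macrophage genes rose in the retina. In the mean of both strains, 8 of the 44 genes were called higher and 1 was called lower, against 2.81% of all 17658 genes called higher and 3.56% called lower. The 8 were Laptm5, Mpeg1, Ly86, Cx3cr1, Cd52, Tyrobp, Adgre1 and Gpr34, and the 1 that fell was Cd83. The median difference was 0.27 units over the 44 genes, against -0.07 units over all genes. Over the 21 above background it was 0.67 units. That value cannot be set against all genes, since the arrays at 5 days helped to place genes among the 21. Of the 44 genes, 22 had an unadjusted p under 0.05 in the direction of a rise, against 9.63% of all genes. In C57BL/6J retinas alone 5 genes were called higher and none was called lower, against 0.923% and 1.3% of all genes, and in DBA/2J retinas alone 0 genes were called, against 0.113% of all genes in either direction. Of the 44 genes in DBA/2J, 13 had an unadjusted p under 0.05 in the direction of a rise, against 5.19% of all genes. SAM also called 0 in DBA/2J, against 0.351% of all probes called higher and 0.0694% called lower. In a whole retina more cells of a type and more RNA per cell cannot be told apart.

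Of the 4 measured lysosome and phagosome proteins, 2 rose over both strains at 5 days. Laptm5 encodes a lysosomal membrane protein of blood-lineage cells. It had 10.45, 11.61 and 10.3 units in DBA/2J retinas at 5 days, against 9.24, 9.27 and 9.15 units in DBA/2J controls. In C57BL/6J retinas at 5 days it had 11.85, 11.66 and 11.04 units, against 9.4, 8.58 and 9.1 units in C57BL/6J controls. In both strains every array at 5 days lay above every control. The difference was 1.56 ± 0.33 units in DBA/2J (SE, adjusted p = 0.0702) and 2.49 ± 0.33 units in C57BL/6J (adjusted p = 0.00227), which after quantile normalization was 1.77-fold and 2.46-fold. Over both strains Laptm5 rose by 2.03 units (adjusted p = 0.000329), the lowest adjusted p among the 44 genes.

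Mpeg1 encodes perforin-2, a pore-forming protein that phagocytes direct against bacteria. It had 8.59, 10.3 and 8.06 units in DBA/2J retinas at 5 days, against 7.06, 7.66 and 6.98 units in DBA/2J controls. C57BL/6J retinas at 5 days had 10.21, 10.68 and 10.35 units, against 7.22, 7.6 and 7.24 units in C57BL/6J controls. The controls of both strains were at or near background, and all crushed retinas at 5 days were above it. Mpeg1 changed by 1.75 ± 0.43 units in DBA/2J (adjusted p = 0.107) and rose by 3.06 ± 0.43 units in C57BL/6J (adjusted p = 0.00301), the largest difference of the 44 genes in both strains. A second probe of Mpeg1 was under background, at a mean of 6.82 units, and was not called.

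Lyz2, the lysozyme of macrophages and granulocytes, had 7.13, 8.77 and 7.48 units in DBA/2J retinas at 5 days, against 6.67, 6.79 and 7.03 units in controls, with every crushed retina above every control. In C57BL/6J its groups overlapped, at 7.07 to 7.68 units at 5 days against 6.93 to 7.28 units in controls, and it was not called. The probe used for Lyz2 was under background, at a mean of 7.24 units. Its other probes, also under background, differed by -0.02 and -0.17 units over both strains. Slc11a1, a metal transporter of the phagosome membrane, was represented by a probe at a mean of 12.44 units, while its 3 other probes lay under background at 6.97 to 7.36 units. That bright probe ranged from 10.63 to 14.1 units over the arrays, and in all groups but DBA/2J at 2 days its highest value was on replicate 2. None of its probes was called, so its level was not settled by these probes.

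Among the pattern recognition and scavenger receptors, 1 of 9 genes was called. Ly86 encodes MD-1, the partner of the receptor Cd180. It had 8.76, 10.1 and 8.63 units in DBA/2J retinas at 5 days, against 8.12, 7.73 and 7.81 units in DBA/2J controls. In C57BL/6J retinas at 5 days it had 9.6, 9.41 and 9.92 units, against 7.61, 7.55 and 7.51 units in C57BL/6J controls. No crushed retina at 5 days overlapped with the controls of its strain. The difference was 1.28 ± 0.3 units in DBA/2J (adjusted p = 0.0893) and 2.09 ± 0.3 units in C57BL/6J (adjusted p = 0.00315), and over both strains 1.68 units (adjusted p = 0.000544). Tlr2, a receptor for bacterial lipoproteins, came near the threshold with a difference of 0.62 units over both strains (adjusted p = 0.0345). It was above every control at 5 days in both strains, at 7.52, 8.61 and 7.6 units in DBA/2J against 7.49, 7.32 and 7.23 units in controls.

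Lgals3, the secreted lectin galectin-3, had 10.23, 12 and 10.55 units in DBA/2J retinas at 5 days, against 9.94, 8.65 and 9.77 units in controls, with no overlap. In C57BL/6J it had 9.81, 9.74 and 9.63 units at 5 days against 8.44, 8.39 and 10.64 units in controls. The highest of these controls, replicate 3, also had the highest mean level of 6 lens crystallin genes, at 18.14 units, against 7.09 to 13.82 units on all other arrays. C57BL/6J control replicate 2 had a lens mean of 12.12 units with Lgals3 at 8.39 units. DBA/2J control replicate 1 had a lens mean of 7.86 units with Lgals3 at 9.94 units. The part of lens RNA in the result was not tested. Lgals3 was not called over both strains (1.02 units, adjusted p = 0.123), and was called without C57BL/6J control replicate 3 (1.39 units, adjusted p = 0.0181). That was the only call of Lgals3 among 20 alternatives. Tlr4, Tlr7, Cd14, Msr1, Mrc1 and the representing probe of Clec7a differed over both strains by -0.16 to 0.01 units, and all but Tlr4 and Clec7a were under background. Another probe of Clec7a, the receptor dectin-1 for fungal glucans, was called at 0.72 units (adjusted p = 0.0128), with a mean level of 6.97 units, under background.

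The adaptor Tyrobp (DAP12), which carries the signal of Trem2 and related receptors, had 7.75, 9.1 and 7.51 units in DBA/2J retinas at 5 days, against 7.49, 7.47 and 7.22 units in DBA/2J controls. C57BL/6J retinas at 5 days had 8.44, 8.62 and 8.97 units, against 7.32, 7.51 and 7.25 units in C57BL/6J controls. Every array at 5 days lay above the controls of its strain, by little in 2 of the 3 DBA/2J arrays. Over both strains Tyrobp rose by 1.02 ± 0.21 units (adjusted p = 0.0102), and in C57BL/6J alone it missed the threshold (1.31 units, adjusted p = 0.0327). In DBA/2J alone its difference was 0.73 units (adjusted p = 0.354). Trem2 itself, a lipid-sensing receptor of microglia, was under background with a mean of 7.17 units and differed by 0.58 units (adjusted p = 0.047). The Fc receptors Fcgr1, Fcgr2b and Fcgr3, which bind antibody-coated particles, were under background and differed by 0.18, 0.27 and 0.55 units, with no call.

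Of the 6 measured receptors and surface proteins of resting microglia, 2 rose over both strains and none was called lower. Cx3cr1, the receptor for the neuronal chemokine fractalkine, had 7.69, 8.18 and 7.87 units in DBA/2J retinas at 5 days, against 7.4, 7.37 and 7.47 units in DBA/2J controls. C57BL/6J retinas at 5 days had 8.41, 8.08 and 7.97 units, against 7.19, 7.36 and 7.38 units in C57BL/6J controls. The groups did not overlap in either strain. Cx3cr1 rose by 0.67 ± 0.1 units over both strains (adjusted p = 0.00131) and by 0.85 ± 0.14 units in C57BL/6J (adjusted p = 0.00675). In DBA/2J it differed by 0.5 units and was not called (adjusted p = 0.142). Without the control array that carried Xist, the C57BL/6J call was lost (adjusted p = 0.0383).

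Gpr34, a receptor for lysophosphatidylserine, was called over both strains with a small difference of 0.25 ± 0.06 units (adjusted p = 0.021). It had 7.79, 7.78 and 7.77 units in DBA/2J retinas at 5 days, against 7.67, 7.57 and 7.72 units in DBA/2J controls. In C57BL/6J it had 8.25, 8.04 and 8.03 units at 5 days, against 7.76, 7.66 and 7.76 units in controls. By strain, it differed by 0.13 units in DBA/2J (adjusted p = 0.648) and 0.38 units in C57BL/6J (adjusted p = 0.0311), with no call. The call of Gpr34 over both strains was lost without any of 10 of the 12 arrays left out in turn. P2ry13 and P2ry6, purinergic receptors for ADP and UDP, differed by 0.41 and 0.54 units and Tmem119 by 0.38 units over both strains, with no call. P2ry12, the ADP receptor that is used as the standard marker of resting microglia, was under background on all 18 arrays, at 6.69 to 7.08 units.

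Integrins and leukocyte surface proteins held 2 genes that rose and the 1 that fell. Cd52, a short surface glycoprotein of lymphocytes and macrophages, had 6.86, 7.52 and 6.58 units in DBA/2J retinas at 5 days, against 6.82, 6.43 and 6.15 units in DBA/2J controls, and these groups overlapped. C57BL/6J retinas at 5 days had 7.96, 8.13 and 9.02 units, against 6.75, 6.77 and 6.59 units in C57BL/6J controls, with no overlap. Cd52 rose by 1.66 ± 0.27 units in C57BL/6J (adjusted p = 0.00615) and by 1.09 ± 0.19 units over both strains (adjusted p = 0.00391). In DBA/2J it differed by 0.52 units and was not called (adjusted p = 0.5). Its only arrays above background were the crushed C57BL/6J retinas at 5 days and 1 DBA/2J retina at 5 days, so its control level is a background reading.

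Adgre1, the macrophage surface antigen F4/80, had 7.71, 8.86 and 7.74 units in DBA/2J retinas at 5 days, against 7.31, 7.52 and 7.19 units in DBA/2J controls. In C57BL/6J it had 8.03, 8.1 and 7.76 units at 5 days, against 7.28, 7.43 and 7.37 units in controls. It rose by 0.68 ± 0.17 units over both strains (adjusted p = 0.0242). A second probe of Adgre1 was under background, at a mean of 6.85 units, and differed by -0.12 units with no call. Cd83, a surface protein of mature dendritic cells and activated lymphocytes, had 8.21, 7.75 and 7.37 units in DBA/2J retinas at 5 days, against 8.45, 8.61 and 8.29 units in DBA/2J controls. In C57BL/6J it had 7.61, 7.82 and 8.03 units at 5 days, against 8.18, 8.24 and 8.11 units in controls. It fell by 0.52 units over both strains (adjusted p = 0.0275), with every crushed retina under every control of its strain. The calls of Adgre1 and Cd83 were each lost when single arrays were left out, Adgre1 without any of 8 of the 12 arrays and Cd83 without any of 9.

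Cd53, a tetraspanin of white blood cells, was above every control in both strains at 5 days, at 7.84, 9.62 and 7.84 units in DBA/2J and 8.04, 8.61 and 8.86 units in C57BL/6J, and was not called (1.02 units over both strains, adjusted p = 0.0491). The probes for the integrin subunits Itgam (CD11b) and Itgb2 (CD18) and for Ptprc (CD45) lay under background, at means of 6.44, 6.71 and 6.97 units, and none was called. These defining surface markers of the lineage were thus not measured above background in this retinal RNA.

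None of the transcription factors and signalling proteins was called by its representing probe. Irf8 had 7.62, 9.34 and 7.64 units in DBA/2J retinas at 5 days, against 7.51, 7.21 and 6.71 units in DBA/2J controls, and 7.87, 7.82 and 8.04 units in C57BL/6J retinas at 5 days, against 7.14, 7.36 and 7.48 units in controls. The groups did not overlap in either strain, but Irf8 was not called (0.82 units over both strains, adjusted p = 0.0524). Spi1 was under background at a mean of 7.29 units and differed by 0.02 units. Aif1, the calcium-binding protein Iba1 that is stained to count microglia, had 2 probes above background. The brighter had 7.78, 9.99 and 7.31 units in DBA/2J retinas at 5 days, against 7.4, 7.42 and 7.13 units in DBA/2J controls. In C57BL/6J retinas at 5 days it had 7.73, 8.36 and 9.53 units, against 7.31, 7.11 and 7.24 units in controls. With that spread it was not called (1.18 ± 0.38 units, adjusted p = 0.0774). The other Aif1 probe varied less and was called over both strains (0.79 ± 0.17 units, adjusted p = 0.013). The actin regulators Coro1a and Lcp1 and the signalling proteins Vav1, Arhgdib and Rac2 differed by -0.13 to 0.27 units, with no call.

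The 3 subunits of the phagocyte NADPH oxidase, which makes superoxide, were not called. Cyba, its small membrane subunit, which other cells also make, was above background at a mean of 8.58 units and differed by 0.44 units. Cybb, the catalytic subunit, was just above background at 7.53 units and differed by -0.15 units, and the cytosolic subunit Ncf1 was under background.

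**Figure D2:**
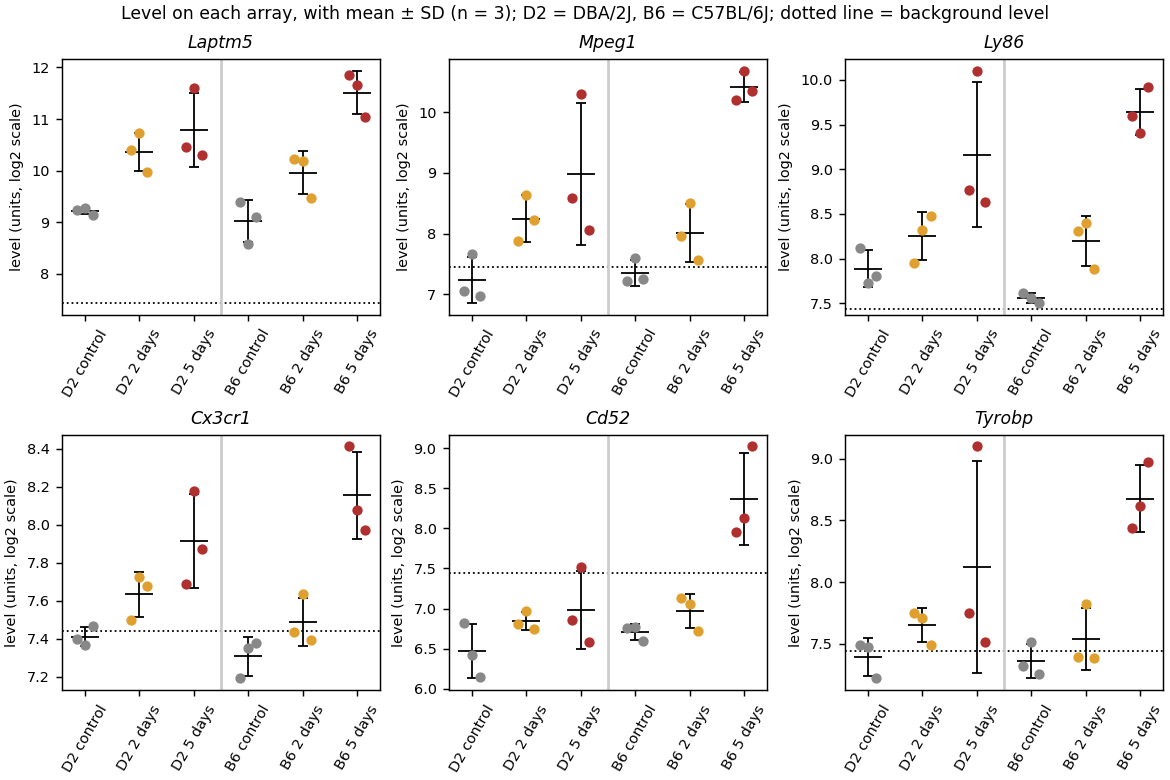
Levels of Laptm5, Mpeg1, Ly86, Cx3cr1, Cd52 and Tyrobp in units (vertical axis, log2 scale) on each array of the 6 groups, with the mean and SD of the 3 arrays and the background level of 7.44 units as a dotted line. In all panels but that of Cd52 in DBA/2J, every array at 5 days lies above the controls of its strain.

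Of the 44 genes, 13 lay above every control in DBA/2J at 5 days, against 6.78% of all genes, and 19 did so in C57BL/6J, against 9.58%. The 2 lists had 10 genes in common, which was 10 of the 13 in DBA/2J and 10 of the 19 in C57BL/6J, namely Adgre1, Cd53, Cx3cr1, Gpr34, Irf8, Laptm5, Ly86, Mpeg1, Tlr2 and Tyrobp, against 2.71% of all genes that lay above every control in both strains. Below every control lay 1 gene in DBA/2J, against 12% of all genes, and 3 in C57BL/6J, against 18.2%, with Cd83 in both, against 4.71%. The median difference of the 21 genes above background was 0.57 units in DBA/2J and 0.58 units in C57BL/6J, but the value of DBA/2J was 0.24 units without its replicate 2 at 5 days. The arrays at 5 days helped to place genes among the 21, which can raise these values. Over all 44 genes the DBA/2J median was 0.19 units, and 0.15 units without that replicate. The difference between the strains in the change at 5 days was called for 0 of the 44 genes and 0% of all genes, with 1 gene higher and 3 genes lower in DBA/2J at an unadjusted p under 0.05, against 2.42% and 1.78% of all genes. Largest in size was that of Mpeg1 (-1.31 ± 0.61 units, DBA/2J minus C57BL/6J, adjusted p = 0.999), and lowest in unadjusted p was that of Cd52 (-1.15 ± 0.38 units, adjusted p = 0.999).

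**Figure D3:**
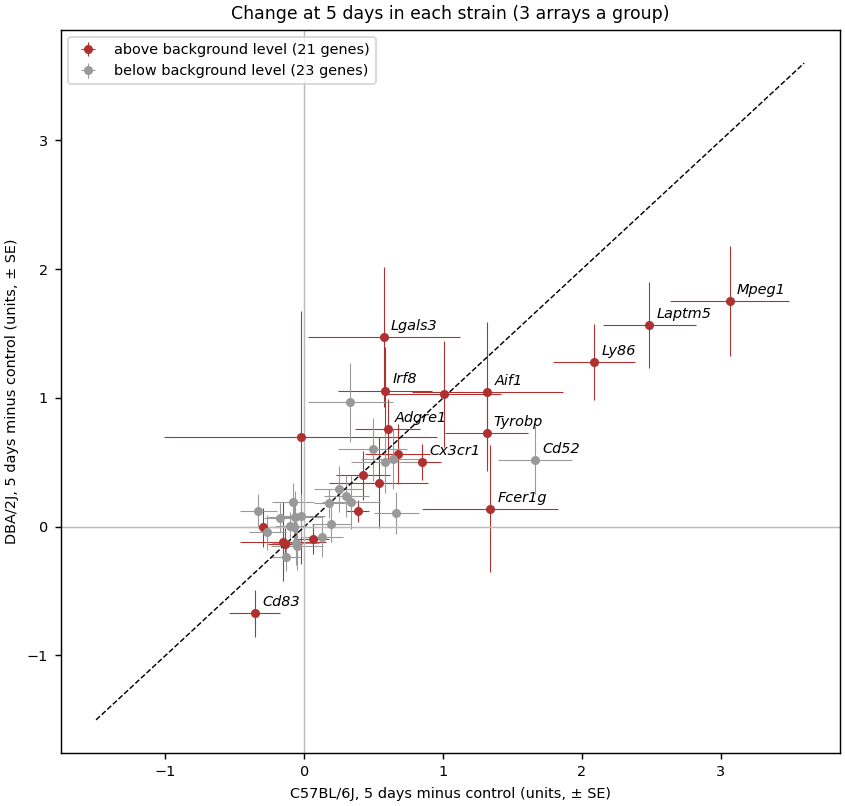
Difference between 5 days and control in DBA/2J (vertical axis) and in C57BL/6J (horizontal axis) for the 44 genes, in units with SE from the fit, with equality as a dashed line. Mpeg1, Laptm5, Ly86, Cd52 and Fcer1g lie toward C57BL/6J and Lgals3 toward DBA/2J, and for none of them was the difference between the strains in the change called.

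The 3 DBA/2J arrays at 5 days were not alike. Replicate 2 had the highest level of the 3 for 34 of the 44 genes, against 37.4% of all genes. At 2 days DBA/2J replicate 2 was also highest, for 25 of the 44 genes, against 32.3% of all genes. In C57BL/6J replicate 2 was highest for 16 genes at 2 days and 6 at 5 days, against 25.3% and 28.7% of all genes. On DBA/2J replicate 2 at 5 days the 21 genes above background lay a median of 1.32 units above the DBA/2J controls. In replicates 1 and 3 this median was 0.28 and 0.25 units, and in the C57BL/6J retinas at 5 days it was 0.59, 0.59 and 0.55 units. The arrays at 5 days helped to place genes among the 21, which can raise these medians. Over all 44 genes, without that choice, the median was 0.51 units on DBA/2J replicate 2 and 0.16 and 0.11 units on replicates 1 and 3. In C57BL/6J at 5 days it was 0.31, 0.16 and 0.39 units. Some markers of astrocytes and reactive Mueller glia moved with it. The mean level of 9 such genes was 12.22 units in replicate 2 and 10.95 and 11 units in the other DBA/2J retinas at 5 days, against 10.21 to 10.46 units in DBA/2J controls. In C57BL/6J that mean was 10.9 to 11.02 units at 5 days, against 10.12 to 10.49 units in controls. The high mean of replicate 2 came from 3 of the 9 genes. Lcn2, a secreted iron-binding lipocalin of reactive astrocytes, had 16.08 units on replicate 2, against 9.14 and 8.39 units on replicates 1 and 3. Serpina3n, a protease inhibitor of reactive astrocytes, had 14.25 units on replicate 2, against 10.67 and 10.46 units, and Gfap, the filament protein of reactive glia, had 12.17 units, against 10.06 and 9.83 units. Aqp4, Rlbp1 and Vim were lower on replicate 2 than on the other 2 arrays, with Aqp4, a water channel, at 11.72 units, against 12.45 and 12.78 units. The part of these glial genes in the result was not tested.

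Without DBA/2J replicate 2 at 5 days the differences of DBA/2J were lower for 35 of the 44 genes and higher for 9. They turned in sign for 7 genes, none of which was called in any comparison, with the largest shift that of Cyba, at -0.15 units in place of 0.34. Laptm5 then differed by 1.15 units in place of 1.56, Mpeg1 by 1.09 in place of 1.75, Ly86 by 0.81 in place of 1.28 and Cx3cr1 by 0.37 in place of 0.5. The largest drop was that of Aif1, at 0.23 units without it in place of 1.05, and Tyrobp differed by 0.24 units in place of 0.73. Over both strains Laptm5, Mpeg1, Ly86, Cx3cr1, Cd52, Tyrobp and Adgre1 were also called without it, and Gpr34 and Cd83 were not.

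**Figure D4:**
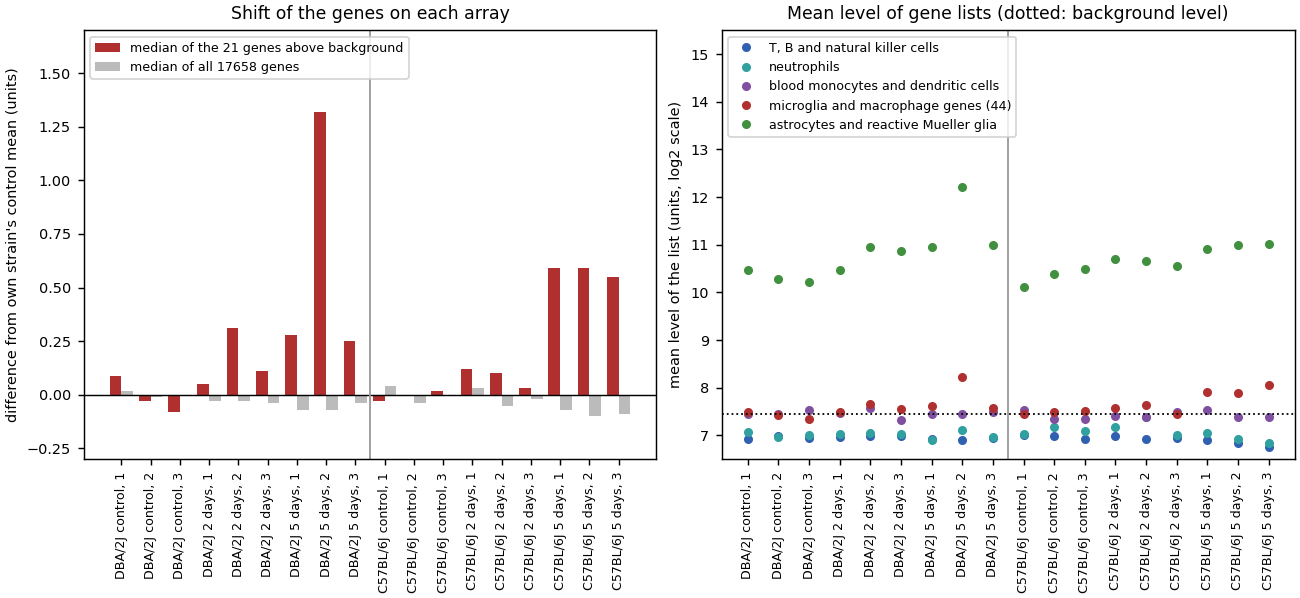
Left, the median difference from the controls of the same strain, in units, on each array, for the 21 genes above background and for all 17658 genes. The arrays at 5 days helped to place genes among the 21, so their bars cannot be set against those of all genes. Over all 44 genes the median on DBA/2J 5 days replicate 2 was 0.51 units. Right, the mean level of the 44 genes and of 4 lists of other cells on each array, in units with the background level dotted; DBA/2J 5 days replicate 2 is highest in the left panel (1.32 units) and in the glial list (12.22 units).

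At 2 days after crush the change was small. No gene was called in DBA/2J, in C57BL/6J or in the mean of both strains, against 0%, 0.0453% and 0.334% of all genes. In the mean of both strains 3 genes had an unadjusted p under 0.05 in the direction of a rise and 2 in that of a fall, against 5.15% and 6.6% of all genes. SAM called 0 of the 44 in either strain. Its share of all probes was 0.0108% higher and 0% lower in DBA/2J, and 0.0846% higher and 0.208% lower in C57BL/6J. Laptm5 stood first, at 10.4, 10.72 and 9.98 units in DBA/2J retinas at 2 days, all above the DBA/2J controls, and at 10.22, 10.19 and 9.47 units in C57BL/6J retinas at 2 days, all above the C57BL/6J controls. Its difference over both strains was 1.04 ± 0.24 units (adjusted p = 0.0885), and 1.16 units without the 2 arrays near the other strain (adjusted p = 0.148). Mpeg1 had 7.88, 8.64 and 8.21 units in DBA/2J and 7.95, 8.51 and 7.57 units in C57BL/6J at 2 days, where the C57BL/6J values overlapped those of controls. Its difference was 0.84 ± 0.3 units (adjusted p = 0.354), and 1.04 units without the 2 arrays (adjusted p = 0.42). In DBA/2J 8 genes lay above every control at 2 days, against 4.11% of all genes, and in C57BL/6J 5 did, against 6.31%. Without the 2 arrays, which leaves 2 arrays at 2 days in each strain, these numbers were 15 in DBA/2J, against 9.31% of all genes, and 7 in C57BL/6J, against 9.72%. Also without them no gene was called at 2 days, and over both strains 4 genes had an unadjusted p under 0.05 in the direction of a rise and 1 in that of a fall, against 4.05% and 5.66% of all genes.

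The comparison of 5 days with 2 days over both strains asked whether the levels moved on after the first days. It called 0 of the 44 genes, against 0.102% of all genes, while 15 genes had an unadjusted p under 0.05 in the direction of a rise, against 3.51%, and 34 of the 44 lay above 0, against 38.3%. Ly86 (1.18 ± 0.21 units, adjusted p = 0.0477), Mpeg1 (1.57 ± 0.3 units, adjusted p = 0.0671) and Cx3cr1 (0.47 ± 0.1 units, adjusted p = 0.0903) had the lowest adjusted p. Without the 2 arrays near the other strain the call count was again 0, with 13 genes under an unadjusted p of 0.05 in the direction of a rise, against 3.64% of all genes, and the adjusted p was 0.215 for Ly86 (1.02 units), 0.257 for Mpeg1 (1.37 units) and 0.289 for Cx3cr1 (0.42 units).

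Fcer1g, the common gamma chain of Fc receptors, is an adaptor of activating receptors, as is Tyrobp. Its level was lower on DBA/2J than on C57BL/6J arrays in controls and at 5 days. Neither difference was called with all arrays. Only 1 probe measured Fcer1g, and whether it reads the DBA/2J sequence as well as that of C57BL/6J was not tested. Fcer1g had 6.79, 6.76 and 6.69 units in DBA/2J controls, against 8.46, 7.69 and 7.93 units in C57BL/6J controls. At 5 days it had 6.99, 6.65 and 7.01 units in DBA/2J, against 9.43, 8.68 and 9.98 units in C57BL/6J. At 2 days the 2 arrays near the other strain were the exceptions: Fcer1g had 8.23 units on DBA/2J replicate 1, against 6.66 and 6.52 units on the other DBA/2J arrays, and 6.79 units on C57BL/6J replicate 3, against 8.9 and 7.92 units on the other C57BL/6J arrays. Without these 2 arrays the 8 DBA/2J arrays lay between 6.52 and 7.01 units, all under background, and the 8 C57BL/6J arrays between 7.69 and 9.98 units, all above it. The difference at 5 days was -2.48 ± 0.49 units (DBA/2J minus C57BL/6J, adjusted p = 0.114), and without the 2 arrays it was called (adjusted p = 0.000675). In controls it was -1.28 ± 0.49 units (adjusted p = 0.54), and without the 2 arrays it was not called (adjusted p = 0.0817), while SAM called it lower.

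Between the strains, 0 of the 44 genes were called in controls and 0 at 5 days with all 18 arrays, against 0.0113% and 0.0227% of all genes in either direction. In controls 3 genes had an unadjusted p under 0.05, all lower in DBA/2J, namely Fcer1g, Msr1 and Ncf1, against 3.82% of all genes lower. Msr1 and Ncf1 were under background, at means of 6.97 and 6.91 units. At 5 days 6 genes were lower in DBA/2J and 1 was higher at that level, against 4.97% and 6.02%. Without the 2 arrays near the other strain, Cd52 was called lower in DBA/2J at 5 days beside Fcer1g (-1.39 units, adjusted p = 0.0238, and 0.109 with all arrays). At 5 days Lgals3 was the 1 gene of the 44 whose DBA/2J arrays all lay above the C57BL/6J arrays of that day (1.2 ± 0.55 units, adjusted p = 0.529), against 9.66% of all genes. The DBA/2J arrays of 3 genes, Fcer1g, Cd52 and Gpr34, all lay below the C57BL/6J arrays of that day, against 6.91%.

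**Figure D5:**
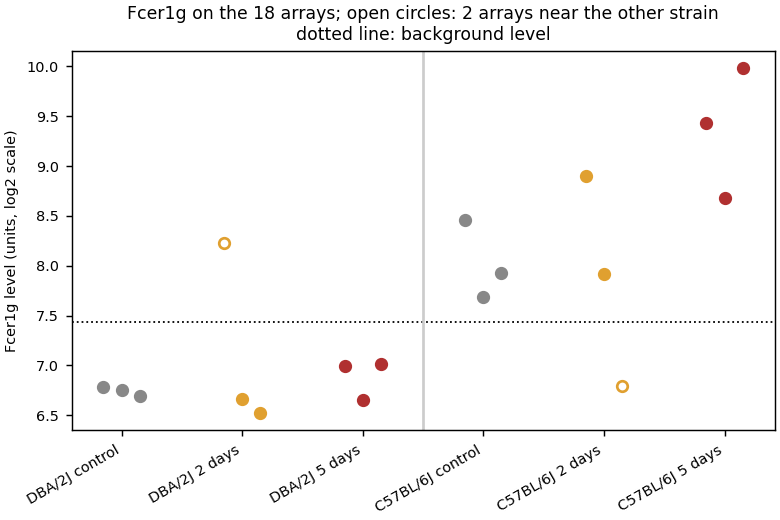
Level of Fcer1g in units (vertical axis, log2 scale) on each array of the 6 groups, with the background level of 7.44 units as a dotted line and the 2 arrays near the other strain as open circles. Apart from these 2, the DBA/2J arrays lie at 6.52 to 7.01 units and the C57BL/6J arrays at 7.69 to 9.98 units.

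Other genes of the same cells and pathways were read from lists. Of 10 measured microglia genes outside the 47, 4 rose over both strains at 5 days and none was called lower, against 2.81% and 3.56% of all genes. These were the complement genes C1qa (0.93 units), C1qb (1.43 units) and C1qc (1.47 units), whose products tag debris and synapses, and the Fc receptor-like gene Fcrls (0.78 units). C1qb had 6.96, 8.69 and 7.38 units in DBA/2J retinas at 5 days, against 6.86, 6.39 and 7.05 units in DBA/2J controls, and these overlapped. In C57BL/6J retinas at 5 days it had 9.25, 8.83 and 9.71 units, against 7.32, 7.1 and 7.51 units in controls. Fcrls had 7.05, 7.04 and 6.81 units in DBA/2J at 5 days, all under background, and 8.42, 7.91 and 8.63 units in C57BL/6J. Ctss, the lysosomal protease cathepsin S, had a larger difference of 2.17 ± 0.59 units and was not called (adjusted p = 0.0379). Siglech went the other way without a call. In C57BL/6J it had 7.45, 7.68 and 7.21 units at 5 days, against 7.92, 8.02 and 8.15 units in controls. Its groups overlapped in DBA/2J.

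Of 13 measured genes of activated phagocytes, 1 was called over both strains at 5 days, the hyaluronan receptor Cd44 (1.05 ± 0.24 units, adjusted p = 0.0169), which glia also make. Of 8 growth factors and receptors of macrophages, 2 rose, the TGF-beta receptors Tgfbr1 (0.62 ± 0.12 units, adjusted p = 0.00698) and Tgfbr2 (0.75 ± 0.16 units, adjusted p = 0.0143), which many cell types make. Among 12 kinases, phosphatases and adaptors below the receptors 0 were called, with Plcg2 (0.36 units, adjusted p = 0.0482) and Ptpn6 (0.27 units, adjusted p = 0.136) lowest in p. Among 15 further sensors and receptors 0 were called, with Cd40 (-0.36 units, adjusted p = 0.0908) and Sirpa (0.51 units, adjusted p = 0.124) lowest in p. In these last 2 lists 2 and 3 genes had an unadjusted p under 0.05 in the direction of a rise, against 9.63% of all genes. The calls in the lists of this paragraph stand against 2.81% of all genes called higher and 3.56% called lower.

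Markers of 3 groups of other white blood cells lay mostly under background. The mean level of 9 genes of T, B and natural killer cells was 6.76 to 7 units on the 18 arrays and that of 8 neutrophil genes was 6.84 to 7.38 units, with none of these genes above background. Of 7 genes of blood monocytes and dendritic cells, 1 was above background, Ly6c1, which vessels also express, and the mean was 7.32 to 7.58 units. None of the genes of these 3 lists was called at 5 days, where their medians over both strains were -0.04, -0.09 and -0.06 units. Over both strains 6.37% of all genes were called at 5 days in either direction. Ccr2, the chemokine receptor of monocytes that enter tissue, had 7.35, 7.21 and 7.57 units in DBA/2J retinas at 5 days, against 7.37, 7.29 and 7.54 units in DBA/2J controls, and 7.45, 7.53 and 7.11 units in C57BL/6J retinas at 5 days, against 7.77, 7.24 and 7.47 units in controls. Of 4 red cell genes, 3 were above background, with a mean level of the 4 between 8.41 and 9.55 units on the arrays, and none was called at 5 days. Of 12 genes of photoreceptors and retinal neurons, 3 were called lower over both strains at 5 days and none higher, against 3.56% and 2.81% of all genes. The 3 were Thy1 (fell by 2.25 units), Arr3 (fell by 1.62 units) and Pcp2 (fell by 0.93 units), and the 12 differed by -2.25 to 1.12 units. The part of a changed mix of retinal cells in the results above was not tested.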

How the data were processed

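Retinal RNA was measured on 1-color Illumina Mouse-6 V1.0 arrays in 6 groups of 3. The authors deposited signal intensity for 46116 probes, not normalized. A second table that they deposited holds scores: log2 intensity as a z-score per array, doubled, with 8 added. The same scaling was applied here to the intensities, which gave the deposited score within 0.02 units for 99.7% of probes. Gene symbols were those of the platform annotation, where 29534 probes had 1 symbol, 11 several and 16571 none. The BeadChip of an array was not given in the sources used here.

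limma (3.58.1, R 4.3.3) fitted 1 mean per group to all 18 arrays with lmFit, contrasts.fit and eBayes for 11 comparisons. Benjamini-Hochberg adjustment ran over all probes of a comparison, and adjusted p-values under 0.03 were called. The fit was checked on simulated data. Full statistics are given for genes called in any comparison and for those of lowest p in each role. The 47 genes, their roles and the other lists were chosen with earlier results of these data known. The motifs, the comparisons that leave out 2 arrays, and the medians with single arrays left out were chosen after seeing the data.

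Deviations from the group means were correlated between arrays of equal replicate number. All 3 correlations were positive only for C57BL/6J at 2 days against control, at 0.527, 0.476 and 0.317. For C57BL/6J at 5 days they were 0.695, 0.589 and -0.043, and in the other comparisons they had mixed signs, from -0.317 to 0.584. Single genes also went with the replicate number, such as Ctss, which was highest on replicate 2 in every group. Figures used Python 3.11.15 with matplotlib 3.10.9. The alternatives were quantile normalization alone or after normexp correction (offset 50), the deposited scores, the brighter 23058 probes, an adjusted p under 0.05, an eBayes trend, a replicate block, a fit of only the groups in question, any probe of a gene, SAM, and leaving out arrays 1 at a time.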

Additional observations from a re-analysis of the deposited data

How the results depend on the processing

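Of the 9 genes called over both strains at 5 days, and of Fcer1g and Lgals3, the direction was kept under every alternative in the comparisons tried for them, while in DBA/2J at 5 days 7 other genes turned in sign without replicate 2. Over both strains at 5 days, Laptm5, Mpeg1, Ly86, Cx3cr1, Cd52 and Tyrobp were called under every alternative that held their probe, with the probe of Cd52 not among the brighter 23058 probes, while Adgre1 was called under 10, Cd83 under 7 and Gpr34 under 5 of 20. The count of called genes in that comparison (9) was 6 to 10 with single arrays left out, 6 without the 2 arrays near the other strain and 12 at an adjusted p under 0.05. In C57BL/6J at 5 days the count (5) was 8 at an adjusted p under 0.05 and 8 by SAM (2.58% of all probes higher, 1.02% lower), and 4 to 5 with single arrays left out. The median over the 44 genes in C57BL/6J at 5 days (0.32 units) was 0.18 without replicate 3 at 5 days and up to 0.42 without the others. For the 21 genes above background it (0.58 units) was 0.57 to 0.66 with single arrays left out, and in DBA/2J (0.57 units) it was 0.24 to 0.76, with 0.24 without replicate 2 at 5 days. Counts of 0 became 1 for DBA/2J at 5 days with a replicate block (Mpeg1), 1 for 5 days against 2 days with a replicate block (Mpeg1), 1 at an adjusted p under 0.05 (Ly86) and 0 to 1 with single arrays left out (1 without DBA/2J 5 days replicate 2). Between the strains a count of 0 became 1 in controls by SAM (0.401% of all probes higher, 0.974% lower), and at 5 days 1 with the arrays of the groups compared alone and 2 without the 2 arrays near the other strain. The cause of these shifts was not tested. The replicate block changed no other count by over 1.5 times. Without the 2 arrays near the other strain, the genes above every DBA/2J control at 2 days numbered 15 in place of 8, and those with an unadjusted p under 0.05 in the direction of a fall over both strains at 2 days 1 in place of 2. Signal limits the reading: 23 of the 44 genes were under background, where a small rise or fall cannot be seen, and the 95th percentile of an array's signals was 8.38 to 15.4 times its 5th.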
